A study of Mus musculus with 3 samples.

Results

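Messenger RNAs of the synaptic vesicle and release machinery, the proteins that dock, prime, fuse and retrieve the vesicles of a nerve terminal, were followed across the layers of the mouse main olfactory bulb. The genes were taken by name, and all 38 were present among the 19621 gene symbols of the deposited tables. Poly(A) RNA had been captured on high-density arrays of barcoded spots from 3 coronal sections, and each section is a sample. All sections came from strain C57BL/6J at 12 weeks of age, and the labels name no treatment, transgene or second genotype. The comparison is therefore between regions within sections, and the labels do not say whether the sections came from separate animals. Its p-values measure only how far differences between regions vary from section to section, which may be technical.

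The deposited annotation gives nearly every spot 1 of 9 region names. The olfactory nerve layer (ONL), at the surface, carries the axons of the sensory neurons of the nose. Those axons end in the glomerular layer (GL) on the dendrites of mitral and tufted cells, which are glutamatergic projection neurons. The external plexiform layer (EPL) is filled with mitral and tufted dendrites and holds the cell bodies of many tufted cells, and the mitral layer (M/T) holds the mitral cell bodies. Beneath it lie the internal plexiform layer (IPL), then an external and an internal granule cell layer (GCL-E and GCL-I) packed with inhibitory granule cells. At the centre are an ependymal cell zone, E, and RMS, the rostral migratory system along which newborn neurons arrive. The level of a gene in a region was set against the mean of the other regions, each of which counted equally.

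Transmitter release works as a cycle. Vesicles are tethered and primed at the active zone, SNARE proteins zip the vesicle to the plasma membrane, synaptotagmins couple fusion to calcium, NSF and its SNAP adaptors take spent SNARE complexes apart, and clathrin with dynamin, amphiphysins and endophilin takes the membrane back. In the bulb, mitral and tufted cells and granule cells signal to each other through paired dendritic synapses in the EPL, so both partners release transmitter from dendrites. What was counted here is mRNA, not protein, and a count does not place a synapse. In sums over spots, fewer cells of a type and less RNA per cell cannot be told apart.

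Sections 1, 2 and 3 held 344260, 650393 and 505305 counts with a gene name, and the 27 sums of a section and region held 1456 to 182699 counts. The smallest was the RMS of section 3, where 1 count equals 687 CPM (counts scaled to a common library total, per 1e6), so values of single genes in the RMS are given only where a test called them. Section 1 stood apart from the other 2. Over genes, chi-square per degree of freedom was 1.2 between sections 2 and 3 and 10.5 and 9.35 between section 1 and each of them, so each call below was also refitted without section 1. Marker genes followed the region names: 8 mitral and tufted cell genes summed to 3521 CPM ± 906 (SD, n = 3) in M/T and 3056 ± 1704 in EPL against 795 ± 155 in GCL-I, 8 granule cell genes to 8653 ± 738 in GCL-I against 3796 ± 635 in GL, and 4 genes of sensory axons to 1612 ± 109 in ONL against 192 ± 61.8 in M/T. The RMS was less distinct: of 4 neuroblast markers 2 could be tested and 0 were called by edgeR, and 7 oligodendrocyte markers had their highest mean there, at 7722 CPM ± 3957, with few counts in section 3.

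Together the 38 members took 22725 of the 1490782 counts in named regions, or 1.52%, and Snap25 alone took 17.9% of those. Their share was highest in M/T in each of the 3 sections, with 2.49%, 1.95% and 2.01% in sections 1, 2 and 3 (mean 2.15% ± 0.299, SD, n = 3). The ONL had the lowest mean, with 1.53%, 0.883% and 1.06% (mean 1.16% ± 0.335). Exact Clopper-Pearson 95% intervals, which cover counting error only, did not overlap between these layers in any section: in section 3 they ran from 0.979% to 1.15% in ONL and from 1.86% to 2.17% in M/T. These 2 layers were picked as the highest and lowest means, which favours such a gap. By mean, GL (1.46% ± 0.459) and EPL (1.55% ± 0.568) lay near the ONL, while GCL-E (1.92% ± 0.457), GCL-I (1.91% ± 0.38) and E (1.73% ± 0.333) lay nearer M/T. Neighbours in this order of means differed by less than the larger of their SDs. Those SDs are between sections and hold the shift of section 1, so they do not measure differences within a section. In section 1 the order was not the same: EPL (2.21%) lay nearer M/T than ONL and above E (2.11%). Section 1 was the highest of the 3 sections in every region. Leaving it out gave means of 1.98% in M/T and 0.973% in ONL. Without Snap25, the other 37 members had their highest mean in M/T too (1.57% over sections 2 and 3, 2.09% in section 1). In ONL they took 0.838% over sections 2 and 3, the lowest of the 9 regions there, and 1.33% in section 1, where the RMS was lower (1.25%).

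**Figure D1:**
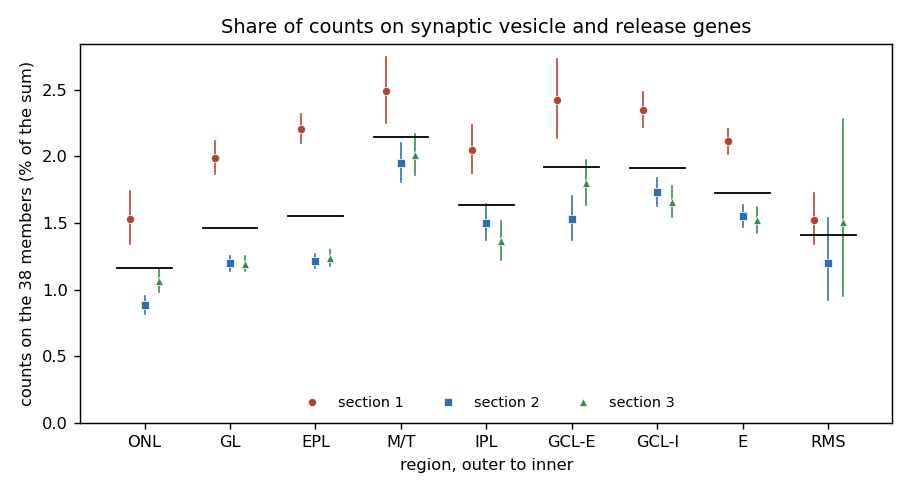
Percent of all counts of a section and region that fell on the 38 members (vertical axis) in the 9 regions from outer to inner (horizontal axis). Points are the 3 sections, vertical lines their exact 95% binomial intervals, and horizontal bars the means over sections. M/T, at 1.95% to 2.49%, was the highest region in each section, and section 1 lay above the other sections throughout.

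Of the 38 members, 30 passed the filter on low counts and were tested (164 to 4079 counts). The other 8 were Stx1a, Vamp1, Vamp3, Syt4, Syt5, Syngr3, Sv2c and Syn3, with 28 to 220 counts. This filter asks for a set CPM in at least 3 of the 27 sums, more than for a total. It favours genes concentrated in a few sums, so Syt4 (220 counts) was left out and Sv2b (164 counts) was tested. In a test of any difference among the 9 regions, 16 of the 30 passed (53.3%), where 23.2% of all 1996 genes tested did. Here and below a gene passed, or was called, at an adjusted p under 0.05 from edgeR's quasi-likelihood test with Benjamini-Hochberg adjustment over all genes tested. By role, the called members were 3 of 6 tested SNARE genes and their disassembly factors, 4 of 5 calcium sensors and complexins, 2 of 5 vesicle membrane proteins, 3 of 3 synapsins and synuclein, 1 of 4 active zone genes and 3 of 7 endocytosis genes. Among the 8 regions without the RMS, 13 of the 30 tested members had their highest mean in M/T and 15 their lowest in ONL. The other way, 4 had their lowest mean in M/T and 1 its highest in ONL. The same was not counted over all genes, and small sums such as those of M/T reach extremes more easily. These counts are therefore not read as a trait of the members. Without section 1 all of the 15 called members that could still be tested passed (Sv2b did not pass the filter there). Without section 2, the deepest, only Syt1, Syt7, Sv2b, Sncb and Pclo passed, and without section 3 these 5 together with Snap25, Vamp2 and Cplx2. Values of these genes are given below as CPM in sections 1, 2 and 3, in that order, and differences as fitted log2 values with their standard error (SE). Where a region is set beside a gene's lowest region, the lowest was picked from these same values. A lack of overlap between such regions is favoured by that choice and is a description, not a test.

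**Figure D2:**
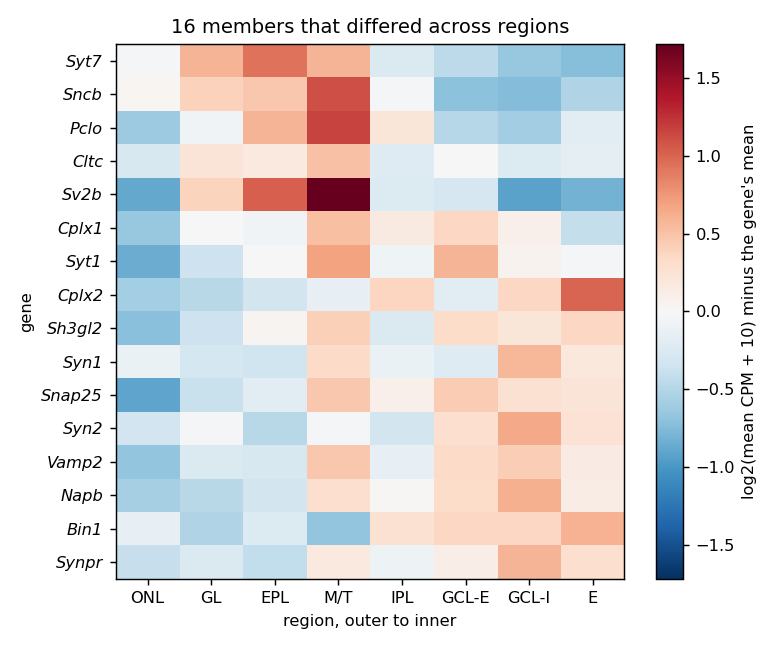
Mean CPM over 3 sections of the 16 called members (rows) in 8 regions (columns, RMS left out), as log2(CPM + 10) minus the gene's mean over the regions, with red above and blue below it. Rows are sorted by how much more a gene's profile resembled the granule cell markers than the mitral and tufted cell markers. Syt7, Sncb, Pclo, Cltc and Sv2b, at the top, were highest in EPL or M/T, and Synpr, Napb, Vamp2 and Syn2, toward the bottom, were high in GCL-I.

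Among the SNARE genes, Snap25 (chr2:136713453-136782428, plus strand, mm10) was low in ONL and high in M/T. It encodes the plasma membrane SNARE that pairs with syntaxin. Its ONL values were 2061, 1245 and 1457 CPM, below the mean of the other regions in 3 of 3 sections, and 2 of 30 tested members were called in this layer (6.66% of all genes tested were, 5.96% higher and 0.701% lower). The log2 difference was -0.81 (SE 0.169, adjusted p = 5.9e-05, and 0.15 without section 2). In M/T it stood at 4059.6, 4304 and 3967 CPM, with the sections close together and each above the mean of its other regions (log2 0.61, SE 0.149, adjusted p = 0.0041). A high level was not particular to M/T. Leaving the RMS aside, GCL-E, GCL-I, IPL and E stood above M/T in section 1, and GCL-E did in section 3. That M/T call was lost without section 2 (adjusted p = 0.65) or section 3 (0.15).

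Vamp2 and Napb were called higher in the inner granule cell layer, although the mean of Vamp2 was highest in M/T. Vamp2, the vesicle SNARE also called synaptobrevin, had 3249.6, 1567 and 1534 CPM in GCL-I against 1610.2, 594 and 747 in ONL, its lowest region by mean. Section 1 was high in both, and the ranges of the 2 regions overlapped across sections although GCL-I exceeded ONL in each. Against the mean of the other regions the log2 difference was 0.57 (SE 0.144, adjusted p = 0.0082). In M/T Vamp2 had 3806, 1359 and 1406 CPM, a log2 difference of 0.55 (SE 0.176) that did not pass (adjusted p = 0.08) but did with RLE scaling, with library sizes alone and with DESeq2. Napb, the beta SNAP adaptor that brings NSF to spent SNARE complexes, had 895, 1287 and 1129 CPM in GCL-I and 579.7, 354 and 509.9 in ONL. These groups did not overlap, and the GCL-I difference was 0.70 (SE 0.168, adjusted p = 0.0042). In GCL-I, 5 of 30 members were called, all higher (3.31% of all genes tested were called and 2.4% were higher). All 5 were lost without section 2, and all but Synpr without section 3: there the adjusted p was 0.39 and 0.063 for Vamp2 and 0.32 and 0.052 for Napb.

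Stx7, a syntaxin of endosomes rather than of the plasma membrane, was the only member called higher in ONL. It did not pass edgeR's test of any difference (adjusted p = 0.058). It had 0, 241 and 255 CPM there, from 0, 17 and 14 counts, and 38.9, 49.5 and 42.6 CPM in GCL-I, its lowest region. The log2 difference was 1.41 (SE 0.41, adjusted p = 0.012), seen in 2 of 3 sections, and it did not pass without section 2 (0.53) or section 3 (0.33), with library sizes alone or with no filter on low counts. The 5 markers of ensheathing glia, the glial cells of this layer, also peaked in ONL, at 3864 to 5222 CPM against 375 to 2291 CPM in the other regions but the RMS; none of the 5 was at 0 over the series. Their part in the Stx7 value was not tested. Of the remaining tested SNARE genes, Nsf (454 counts) and Napa (270 counts) passed in no comparison.

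The calcium sensors Syt1 and Syt7 had their highest means in different layers. Syt1, the synaptotagmin of fast synchronous release, had 761, 1557 and 1437 CPM in M/T and 129, 538 and 601 CPM in ONL. M/T exceeded ONL in each section, and section 1 was the lowest in both. In section 2 GCL-E stood above M/T, and Syt1 was called higher in GCL-E with RLE scaling, library sizes alone and DESeq2. Against the mean of the other regions M/T was higher by a log2 of 1.0 (SE 0.209, adjusted p = 0.0003), a call that held when any 1 section was left out (adjusted p from 0.00084 to 0.035). In M/T, 5 of 30 members were called, all higher (2.2% of all genes tested were called, 1.9% higher and 0.301% lower). Syt1 was also called lower in the RMS (log2 -2.36, SE 0.594, adjusted p = 0.016), where 0.902% of all genes tested were called and 0.651% were lower. That value rests on 0, 3 and 1 counts and was lost with RLE scaling, with library sizes alone, with DESeq2 and without section 1 or section 2.

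Syt7, a slower, high-affinity calcium sensor, had its highest mean in EPL (chr19:10389090-10453180, plus strand, mm10). In M/T its mean was 433 CPM ± 101 (SD, n = 3), near its level in GL, and it was not called there against the other regions. In EPL Syt7 had 633, 520.0 and 519 CPM, and in E, its lowest region, 159, 160.3 and 184 CPM. All EPL values lay above all E values, 1 of the widest separations among the members. EPL exceeded the mean of the other regions by a log2 of 1.20 (SE 0.178, adjusted p = 9.3e-10), and in EPL 5 of 30 members were called, all higher (12.1% of all genes tested were called, 10.8% higher and 1.35% lower). GL, at 306, 569 and 431 CPM, was higher too (log2 0.91, SE 0.191, adjusted p = 7.1e-05, but 0.27 without section 2), 1 of 3 members called there, all higher (10.9% of all genes tested were called, 8.77% higher and 2.15% lower). E was lower (log2 -0.90, SE 0.27, adjusted p = 0.043), a call lost in 8 of 13 alternatives, among them each section left out (adjusted p from 0.18 to 0.37) and DESeq2.

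Both tested complexins, which clamp and then promote SNARE fusion, differed across regions but with different peaks. Cplx1 had its highest mean in M/T, at 2474, 651 and 1062 CPM, and its lowest in ONL, at 966, 354 and 528 CPM. It passed the test of any difference (adjusted p = 0.012) and in no comparison of 1 region with the others. Cplx2 was higher in E, at 431, 435 and 402 CPM, than in ONL, at 0, 184 and 219 CPM, its lowest region. The E values lay close together and above every other value of the gene in the 8 regions without the RMS. The log2 difference of E was 1.28 (SE 0.237, adjusted p = 4.4e-05), and it passed without each section (adjusted p from 0.0013 to 0.026). In E, 3 of 30 members were called, 2 higher and 1 lower (2.61% of all genes tested were called, 2.15% higher and 0.451% lower). Syt11, the fifth tested sensor, with 962 counts, was near level across regions, its highest regional mean only 1.26 times its lowest.

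**Figure D3:**
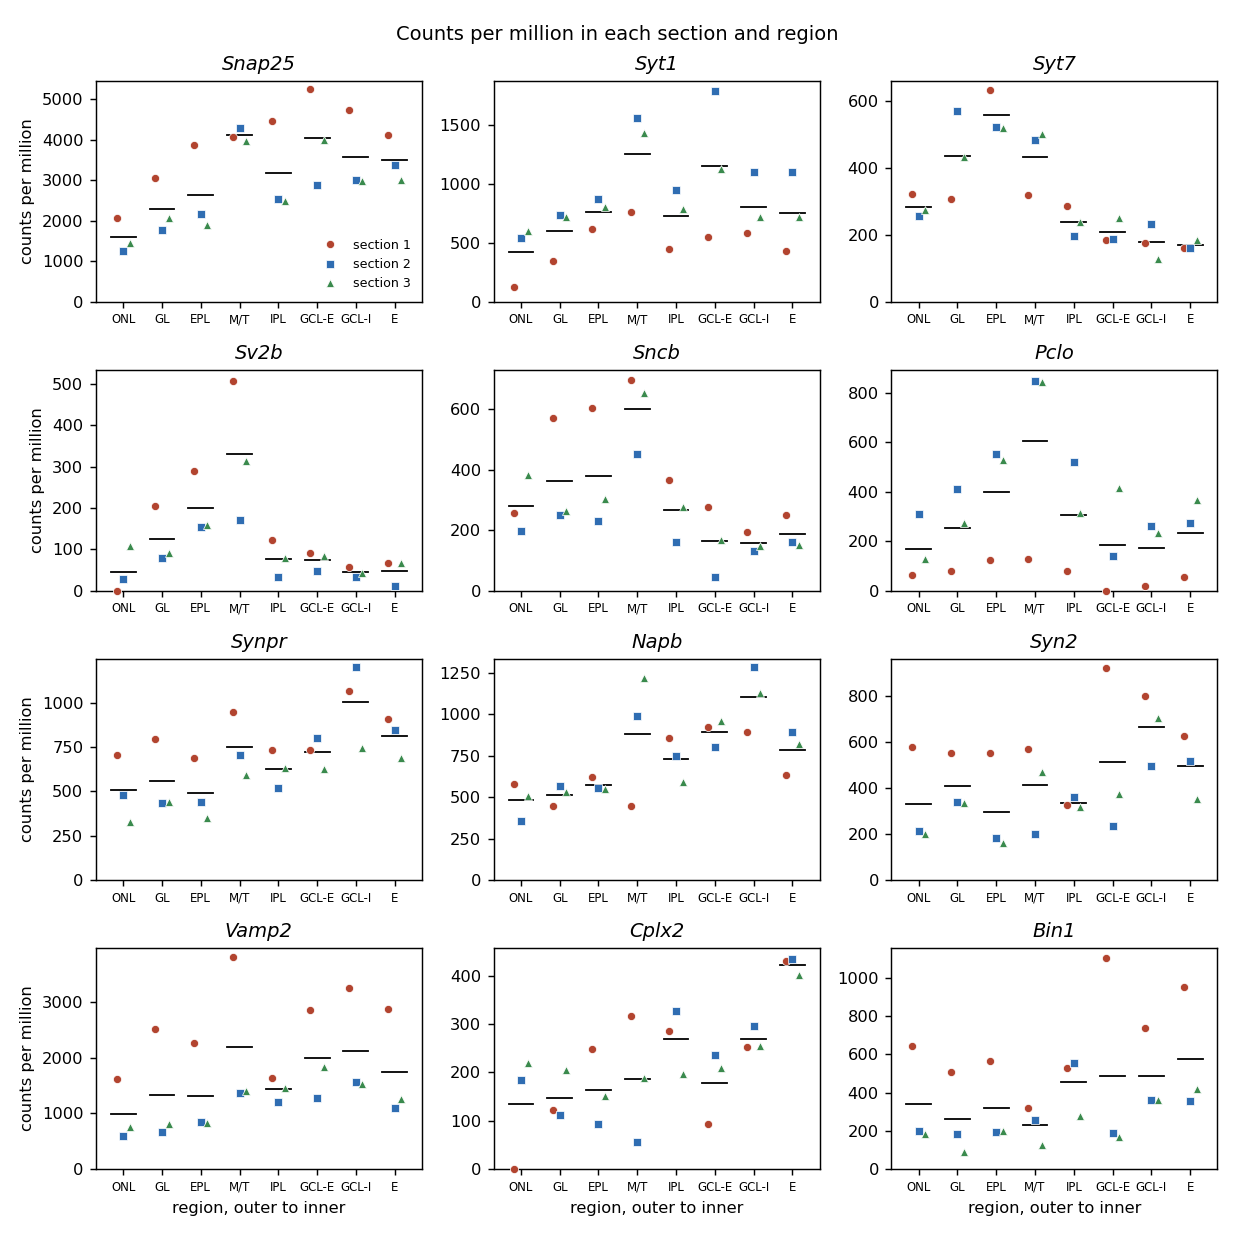
CPM of 12 members in each section (points) and the mean over sections (bars) in 8 regions from outer to inner, with a vertical axis for each gene that starts at 0. Syt7, Sv2b, Sncb and Pclo peak in EPL or M/T, Synpr, Napb and Syn2 in GCL-I, and Cplx2 and Bin1 in E, while Pclo and Syt1 are lowest in section 1 in every region shown.

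Of the vesicle membrane proteins, Sv2b had the widest range of any tested member (chr7:75114894-75309262, minus strand, mm10). It encodes a glycoprotein of the vesicle membrane that binds synaptotagmin. It had 507, 169.9 and 312 CPM in M/T and 289, 153 and 159.6 CPM in EPL, against 58.4, 33.0 and 42.6 CPM in GCL-I, its lowest region. Every M/T and EPL value lay above every GCL-I value, although the gene had only 164 counts in all and 24 in M/T. Its GCL-I values rest on 3, 2 and 2 counts, so the width of its range is uncertain. Sv2b reached the level set by the filter only in sums of M/T and EPL, the regions where it was then called. It was also called higher in both regions with no filter on low counts and with a filter of 100 counts in all. The differences from the other regions were a log2 of 2.07 in M/T (SE 0.455, adjusted p = 0.00075) and 1.55 in EPL (SE 0.329, adjusted p = 6.2e-05), with all 3 sections higher. Both calls held without section 2 or section 3. Synpr, synaptoporin, a relative of synaptophysin, went the other way, with 1070.2, 1204 and 746 CPM in GCL-I and 688, 438 and 351 CPM in EPL, its lowest region. These groups did not overlap, and GCL-I was higher than the other regions by a log2 of 0.66 (SE 0.171, adjusted p = 0.011, and 0.51 without section 2). Sv2a (681 counts), Syp (428 counts) and Syngr1 (257 counts) passed in no comparison.

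The synapsins, which tether vesicles to the actin cytoskeleton in the reserve pool, were both higher in GCL-I. Syn1 had 1187, 462 and 639 CPM there and 743, 181 and 279 CPM in EPL, its lowest region, so that the sections differed more than the regions did. Within each section GCL-I was the higher (log2 against the other regions 0.70, SE 0.194, adjusted p = 0.018). Syn2 had 798, 495 and 703 CPM in GCL-I and 550.3, 181 and 159.6 CPM in EPL, likewise higher in each section (log2 0.88, SE 0.208, adjusted p = 0.0039). Neither passed without section 2 (adjusted p 0.29 for Syn1 and 0.099 for Syn2) or section 3 (0.22 and 0.11). Sncb, beta-synuclein, a small soluble protein of nerve terminals, had the opposite layers. It had 698, 453 and 656 CPM in M/T, 605, 229.9 and 303 CPM in EPL and 571, 252 and 265 CPM in GL, against 195, 132 and 149 CPM in GCL-I. All values of M/T, EPL and GL exceeded all GCL-I values. The log2 differences were 1.47 in M/T (SE 0.291, adjusted p = 7.8e-05), 0.78 in EPL (SE 0.21, adjusted p = 0.0033) and 0.67 in GL (SE 0.223, adjusted p = 0.029). The M/T call held without each section (adjusted p from 9.6e-05 to 0.03). The EPL call was lost without section 2 (adjusted p = 0.058). The GL call was lost in 8 of 13 alternatives, among them without section 1 (0.086), section 2 (0.35) or the RMS (0.15), with library sizes alone, with the filter of 100 counts, in the 6 larger regions alone and with DESeq2.

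Pclo was the active zone gene that differed. It encodes Piccolo, a giant scaffold of the active zone. It had 127, 849 and 843 CPM in M/T and 124, 553 and 527 CPM in EPL, against 64.4, 311 and 127 CPM in ONL, its lowest region. Section 1 was the lowest of the sections in each of the 8 regions without the RMS, and in each section M/T and EPL were above the mean of the other regions. The log2 differences were 1.40 in M/T (SE 0.269, adjusted p = 5.8e-05) and 0.93 in EPL (SE 0.195, adjusted p = 4.4e-05), and both held without each section. Bsn, which encodes the related scaffold Bassoon, had 260 counts and passed nowhere, as did Unc13a, the vesicle priming factor Munc13-1 (212 counts), and Snph, syntaphilin (260 counts).

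The sequences just upstream of 4 of these genes are shown because they form the contrasting groups, Syn1 and Syn2 highest in GCL-I and Sncb and Pclo highest in M/T. They are from RefSeq (GRCm38.p6), 5′ to 3′ on the gene's strand, and end at the annotated gene start. Syn1 is at chrX:20921005-20921168 (minus strand, 164 bases), Syn2 at chr6:115134652-115134901 (plus strand, 250 bases, also exonic in the antisense gene Gm17733), Sncb at chr13:54766596-54766845 (minus strand, 250 bases) and Pclo at chr5:14514668-14514917 (plus strand, 250 bases). Capitals mark matches to RE1, the site of the repressor REST that silences neuronal genes outside neurons, and to the cyclic AMP response element (CRE).
Syn1: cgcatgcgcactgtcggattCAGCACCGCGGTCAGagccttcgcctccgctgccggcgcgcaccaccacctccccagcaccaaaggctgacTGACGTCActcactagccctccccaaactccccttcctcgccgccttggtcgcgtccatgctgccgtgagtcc
Syn2: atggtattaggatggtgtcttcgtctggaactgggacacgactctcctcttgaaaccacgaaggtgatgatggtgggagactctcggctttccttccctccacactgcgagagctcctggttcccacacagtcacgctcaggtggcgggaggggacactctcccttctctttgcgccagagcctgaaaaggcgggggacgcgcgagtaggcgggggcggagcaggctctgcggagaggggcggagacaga
Sncb: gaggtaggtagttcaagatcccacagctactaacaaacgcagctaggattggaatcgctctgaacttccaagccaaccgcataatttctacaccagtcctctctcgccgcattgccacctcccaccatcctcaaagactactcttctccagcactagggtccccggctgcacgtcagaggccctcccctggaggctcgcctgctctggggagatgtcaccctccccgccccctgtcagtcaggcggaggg
Pclo: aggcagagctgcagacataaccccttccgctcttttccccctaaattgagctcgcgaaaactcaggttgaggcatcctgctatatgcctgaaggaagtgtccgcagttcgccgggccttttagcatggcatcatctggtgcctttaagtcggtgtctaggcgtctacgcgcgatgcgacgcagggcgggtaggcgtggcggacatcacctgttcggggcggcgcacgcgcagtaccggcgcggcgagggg
The motifs searched on both strands were RE1 in a form with a few free letters, TGACGTCA for CRE and GCGTGGGCG for the EGR site, over 300 bases from 250 before to 50 after each RefSeq start. RE1 was found in 0.0578% of 32851 promoters, CRE in 1.79% and EGR in 0.612%. RefSeq promoters matched 29 of the 38 members. Among these Syn1 alone held RE1, at -230 from its RefSeq start, and its letters were relaxed after that sequence had been read. CRE was in Syn1, Napa and Sh3gl2, and EGR in Synj1 and Unc13a. None of the 3 motifs lay in the windows of Syn2, Sncb or Pclo, so no motif searched was common to the genes of either group.

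Among the endocytosis genes, Cltc, the clathrin heavy chain that coats budding vesicles, had its highest mean in M/T, at 951, 1189 and 1187 CPM. There the log2 difference of 0.63 (SE 0.209) did not pass (adjusted p = 0.094), but it did with RLE scaling, with library sizes alone, with DESeq2 and without section 1. It was called higher in GL, at 754, 1039 and 945 CPM, and had its lowest mean in ONL, at 644, 566 and 728 CPM. The groups did not overlap and the GL difference was a log2 of 0.51 (SE 0.15, adjusted p = 0.012), lost without section 2 (0.33), section 3 (0.16) or the RMS (0.075), with library sizes alone and with DESeq2, and in 6 of 13 alternatives in all. The EPL difference of Cltc, 963, 794 and 886 CPM and a log2 of 0.41 (SE 0.149, adjusted p = 0.047), passed in 1 of 13 alternatives. Bin1, amphiphysin 2, was higher in E, at 954, 355 and 419 CPM, than in M/T, at 317, 255 and 125 CPM, its lowest region (log2 of E against the others 0.69, SE 0.188, adjusted p = 0.018). The call was lost when any 1 section was left out (adjusted p from 0.074 to 0.26), with RLE scaling and with DESeq2. The 7 oligodendrocyte markers, none at 0 over the series, summed to 3447 to 5393 CPM in E and 1472 to 2664 CPM in M/T, and their part in the Bin1 value was not tested. Sh3gl2, endophilin A1, which bends membrane and recruits synaptojanin, passed the test of any difference (adjusted p = 0.018) and no region comparison. It had 825, 679.5 and 625 CPM in M/T and 451, 269 and 237 CPM in ONL. Each M/T value was above each ONL value, but these were picked as its regions of highest and lowest mean. Dnm1 (947 counts), Ap2m1 (491), Synj1 (391) and Amph (287) did not pass. Exons of 11 members overlap a gene on the other strand (among the called, Syt7, Sv2b, Syn1, Syn2, Pclo and Bin1), and the sources used here do not say whether the counting used strand. Ap2m1, the mu subunit of the clathrin adaptor, has near-identical copies, 2 of them with counts in the files, so its own count is uncertain.

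No member was called in IPL, where no gene of the 1996 was (0.0%) and 0 members had an unadjusted p under 0.05 with edgeR and none passed with DESeq2. None was called in GCL-E either, where 0.401% of all genes tested were. There 3 members had an unadjusted p under 0.05, and DESeq2 called 2 higher, Snap25 and Syt1.

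Counts of related genes within the same sum share its depth, so their ratio compares regions without scaling. Cplx2 made up 26.0%, 45.2% and 48.0% of the counts on Cplx1 and Cplx2 in E, and 11.4%, 8.0% and 15.0% in M/T. These groups did not overlap, but they were the regions of highest and lowest mean without the RMS. Sv2b made up 30.9%, 29.5% and 33.9% of the counts on Sv2a and Sv2b in EPL and 36.4%, 28.6% and 29.4% in M/T, against 8.57%, 6.9% and 10.5% in GCL-I. Syt7 made up 50.5%, 37.4% and 39.2% of the counts on Syt1 and Syt7 in EPL and 23.1%, 17.3% and 15.0% in GCL-I. These 3 shares kept their direction in all 3 sections, including section 1. The share of Syn2 among Syn1 and Syn2 did not separate layers: it was 48.1% ± 6.85 in GCL-I and 43.0% ± 6.83 in EPL. With 3 sections an exact two-sided sign-flip test cannot go below a p of 0.25, so none is given. Lengths differ between the genes of a pair, and the shares say nothing of which has more molecules.

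**Figure D4:**
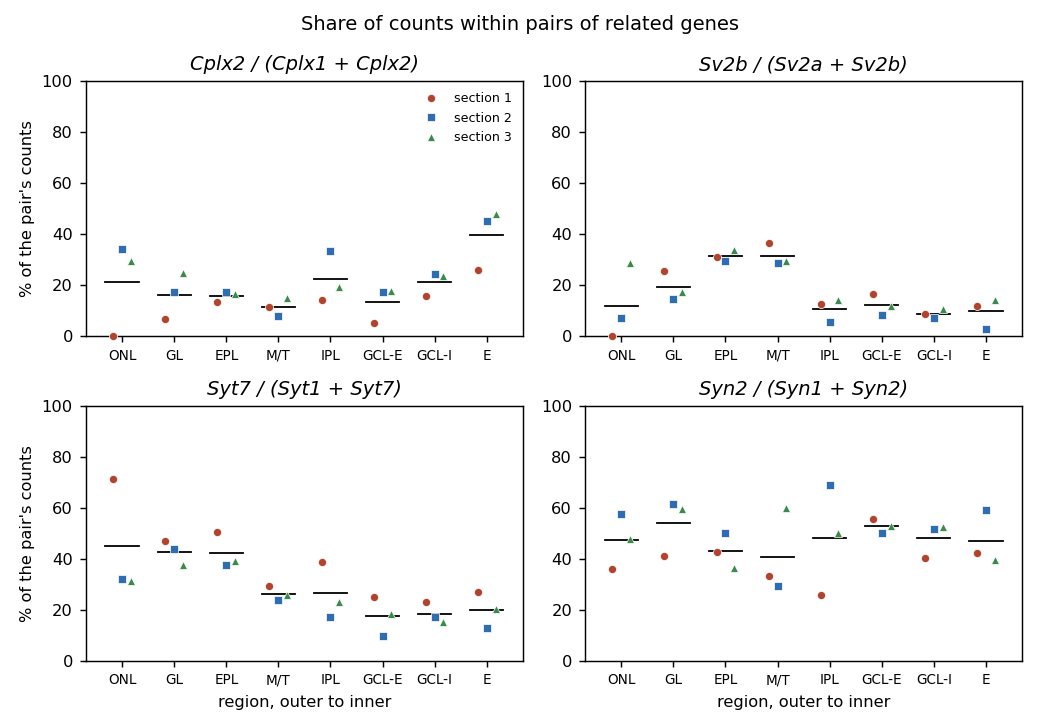
Share of Cplx2, Sv2b, Syt7 and Syn2 in the counts of a pair of related genes (vertical axis, percent) in 8 regions from outer to inner, with points for the 3 sections and bars for their means. Cplx2 reaches 26.0% to 48.0% in E, Sv2b lies at 28.6% to 36.4% in EPL and M/T, and the share of Syt7 is lower in GCL-I than in EPL, while that of Syn2 shows no order of regions.

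The plexiform and mitral layers, where mitral and tufted cells lie, were also compared directly with the mean of the 2 granule cell layers. These comparisons share sums with those above and are not independent of them. In M/T, 4 of 30 members were called, all higher (2.05% of all genes tested were called and 1.7% were higher): Sv2b (log2 2.41, SE 0.567, adjusted p = 0.0027), Sncb (2.02, SE 0.37, 1.3e-05), Pclo (1.75, SE 0.331, 3.2e-05) and Syt7 (1.23, SE 0.373, 0.049). Each was higher in 3 of 3 sections, some of them on very few counts. For Pclo, section 1 rests on 2 counts in M/T, 1 in GCL-I and 0 in GCL-E. Sv2b had 3, 2 and 2 counts in GCL-I and 1, 1 and 2 in GCL-E. Sncb held without each section, Pclo was lost without section 2 (adjusted p = 0.088), Sv2b without section 3 (0.11) and Syt7 without any 1 of them (0.064 to 0.4). In EPL, 8 of 30 were called, 4 higher and 4 lower (14.7% of all genes tested were called, 10.3% higher and 4.41% lower). The same 4 genes were higher, by a log2 of 1.95 for Sv2b (SE 0.477, adjusted p = 0.00071), 1.67 for Syt7 (SE 0.266, 1.9e-08), 1.40 for Sncb (SE 0.312, 0.00016) and 1.33 for Pclo (SE 0.275, 3.5e-05). These calls held without section 2 or section 3, and those of Syt7, Sncb and Pclo without section 1 too. Lower in EPL in 3 of 3 sections were Syn2 (log2 -0.83, SE 0.26, adjusted p = 0.013), Synpr (-0.66, SE 0.212, 0.018), Napb (-0.59, SE 0.198, 0.024) and Vamp2 (-0.52, SE 0.166, 0.015). Those 4 passed without section 1 and not without section 2 or section 3.

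Profiles of the members were set beside the summed markers of the 2 main neuron classes, over 24 sums (8 regions in 3 sections, log2 of CPM + 10, centred within each section). Pearson's r with the mitral and tufted list was 0.85 for Syt7, 0.76 for Sncb, 0.71 for Pclo, 0.70 for Cltc and 0.62 for Sv2b. With the granule cell list it was 0.82 for Synpr, 0.80 for Napb and 0.74 for both Vamp2 and Snap25. Syt1 and Cplx1 were weakly related to either list (r from 0.068 to 0.43). The lists themselves were opposed (r = -0.67), the sums share libraries, and these values describe the layers without testing the part of either cell type.

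A further 60 genes of the vesicle cycle, outside the 38 members, were counted in the same fit. Of these 59 were in the files and 29 were tested, and 8 passed the test of any difference (27.6%, beside 23.2% of all genes), among them Snap91, Syt6, Dnm3, Itsn1 and Eps15. Itsn1 and Eps15, scaffolds of clathrin-coated pits, were called higher in GL and EPL, and Dnm3, a dynamin, higher in GL. Dnajc5, a vesicle chaperone, was called higher in GCL-I (log2 0.72, adjusted p = 0.046) without passing the test of any difference (adjusted p = 0.15), and DESeq2 called 0 genes of this list in GCL-I. Syt6, a synaptotagmin, was lower in GL (66.9 ± 14.3 CPM, log2 -1.25, adjusted p = 0.014). No gene of this list was called in ONL, IPL, GCL-E, E or RMS by edgeR, where 1, 3, 2, 5 and 4 had an unadjusted p under 0.05; DESeq2 called 0 in each. The median log2 difference in M/T was 0.26 for this list and 0.49 for the 30 tested members, beside 0.06 for all genes tested. In ONL the medians were -0.14, -0.24 and 0.08.

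The scaling of the sums moved the whole table, so directions in the outer layers are best read beside that shift. In ONL the median of all genes tested was 0.08 with TMM scaling and -0.13 with library sizes alone, and the members' median was -0.24 and -0.42. With library sizes alone the ONL calls became 0 higher and 5 lower (Snap25, Vamp2, Napb, Cplx1 and Ap2m1) instead of 1 and 1. In the same way GL changed from 3 higher and 0 lower to 1 and 3, with Snap25, Napb and Bin1 lower, and EPL from 5 and 0 to 4 and 1, with Synpr lower. RLE scaling gave 3 and 1 in GL and turned E from 2 higher and 1 lower to 1 and 2. A fit without the RMS gave 1 higher and 5 lower in ONL, 1 and 4 in GL, 4 and 1 in EPL (Syn2 lower), 5 and 1 in GCL-I (Sncb lower) and 2 and 2 in E (Syt7 and Cplx1 lower). In M/T and GCL-I every member named above as higher was called higher under each of these 3 settings.

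Section 1 differed from the others in the members themselves. Over its regions Pclo had 75.5 CPM in section 1 and 427 and 373 in sections 2 and 3, and Syt1 had 468, 924 and 797. In the other direction Syn1 had 898, 253 and 329 CPM and Vamp2 2577, 934 and 1046. Of the 32 members with at least 100 counts, 23 were highest in section 1 (71.9%) and 7 lowest (21.9%), beside 47.1% and 45.4% of 3591 genes with as many counts. Across these members the log2 ratio of section 1 to the mean of the others (CPM + 10) went with the length of the longest annotated transcript at a Spearman rho of -0.65 (32 genes), and across 3583 genes at -0.55. Genes are not independent replicates and share the libraries, so these are descriptions. What set section 1 apart was not tested.

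**Figure D5:**
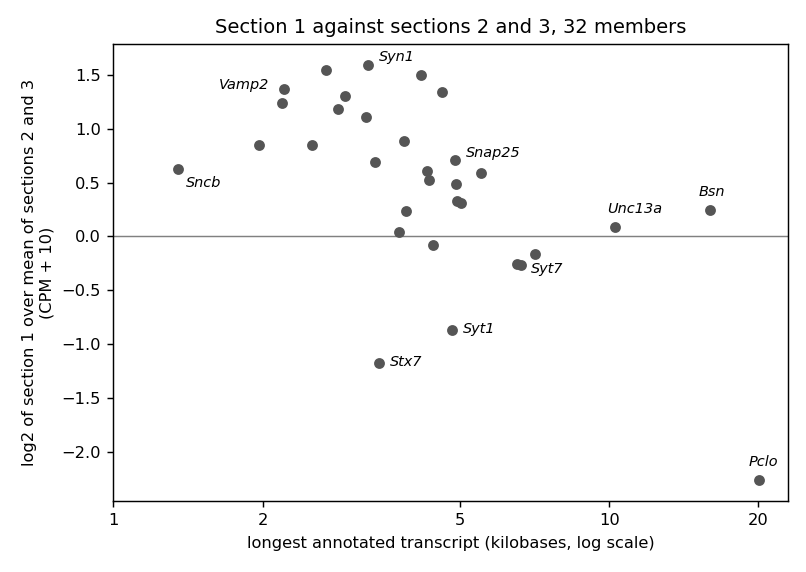
For 32 members, the log2 ratio of CPM + 10 in section 1 to the mean of sections 2 and 3 (vertical axis) against the length of the longest annotated transcript in kilobases (horizontal axis, log scale). The horizontal line marks no difference, and Pclo, the longest at 20084 bases, lies far below it, while Syn1 and Vamp2 lie above it.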

How the data were processed

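High-density spatial transcriptomics arrays were read from 3 sections. The authors deposited raw counts of each gene at each barcoded spot, mapped to mm10 per the submitters' processing notes. The sources used here do not give the aligner, the counting or any use of molecular identifiers. Pixel positions linked 100% of the spots to the deposited annotation, and the counts of a gene were added up for each region of each section. Counts without a gene name (0.0325% to 0.0801% of a section) were left out.

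Sums were tested with edgeR 4.0.16 (quasi-likelihood, R 4.3.3) with region and section as terms, TMM scaling, filterByExpr with a minimum count of 10 and Benjamini-Hochberg adjustment over 1996 genes within a comparison. The fit was also run on simulated counts with known changes and a spread set equal for all genes. That run does not show how reliable the calls in these data are. Section is a block because the regions of a section share its array: deviations from the region means correlated at a mean r of 0.38 within a section. The mean r of -0.17 across sections is no added evidence, because deviations of a region cancel out over the sections. Values are given by section for members called in the test of any difference or in a region comparison, in the regions called and the region of lowest mean, and for the member of most counts in each role. Alternatives were 12 planned and 1 added after seeing the data, among them DESeq2 1.42.0. Members, lists and comparisons were chosen with earlier results of these data known. Annotation was GENCODE M21. A few genes of the vesicle cycle list are not reported here.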

Additional observations from a re-analysis of the deposited data

Results flagged for a closer look

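Counts of the members were also present in spots that the deposited annotation assigns to no named region, which entered no comparison. There were 76 such counts from 23 members in section 2, 1.33% of the 5699 counts in those spots, and 54 from 21 members in section 3, 1.57% of 3435. Section 1 had 0 of 42 counts, which allows a share of up to 7.14%. These shares lie within the range of the named regions of the same sections, and the labels name no control sample that could set a background.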

How the results depend on the processing

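Over the 13 alternatives 481 results for named genes stayed on their side of the threshold and 147 no longer passed, 47 of them without the section block. No region comparison among them was counted as reversed in direction, and the test of any difference has no direction. Only results that passed in the main fit were counted, so calls made by an alternative alone lie outside these figures. Counts of called members moved by over 1.5 times in 49 of 145 cases. With no replicate block, the pairing of regions by section left out, they were 2 for any difference, 1 in EPL and in each comparison with the granule layers, and 0 in ONL, GL, M/T, GCL-I, E and RMS. Library sizes alone gave 5 in ONL, 2 in GCL-E and 0 in RMS, and RLE scaling 8 in M/T, 1 in GCL-E and 0 in RMS. No filter on low counts gave 1 in ONL, 8 in EPL, 7 in E, 3 in RMS and 5 for EPL against the granule layers. Without the RMS there were 6 in ONL and 5 in GL. Leaving out spots near a border gave 0 in ONL, 1 in IPL and 5 in E, and no value for M/T, GCL-E, RMS and both granule comparisons, where a sum fell under 1000 counts. The 6 larger regions alone, an alternative chosen after seeing the data, gave 8 in GCL-I and 5 in E. DESeq2 gave 2 in GCL-E, 1 in E and 0 in RMS. Leaving out each section in turn gave 5 to 17 for any difference, 0 to 2 in ONL and GL, 3 to 4 in EPL, 4 to 6 in M/T, 0 to 5 in GCL-I, 1 to 2 in E, 0 to 1 in RMS, 0 in IPL and GCL-E, 2 for M/T and 4 to 8 for EPL against the granule layers. The cause of these changes was not tested, beyond the fewer samples or genes that a setting has. Depth limits the RMS, GCL-E and the genes of few counts most.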
